A study of Homo sapiens with 11 samples.

Results

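The response of U2OS cells to methyl methanesulfonate (MMS) is described from 2 of the 11 RNA-seq libraries of the series, the MMS library and the DMSO library of this line. U2OS is an adherent human osteosarcoma line. In the MMS library the cells had 40 µg/mL MMS for 8 h, a dose the submitters describe as an IC50. The DMSO library is the vehicle control, and no duration is given for it. Both came from sub-confluent dishes in DMEM with serum, and total RNA was extracted on a silica column. The other libraries are U2OS cells with doxorubicin, etoposide or paclitaxel, and MDA-MB231 breast cancer cells with the same 4 drugs or DMSO. With 1 library a side there is no replicate and no test: every difference here is between 2 libraries, and its spread between cultures is unknown.

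MMS is a small alkylating agent that methylates bases of DNA, mostly at nitrogen atoms of guanine and adenine. Methylated bases are removed by base excision repair or reversed directly by dioxygenases and by MGMT, and stalled replication forks call in checkpoint signalling. MMS also reacts with thiols, including glutathione, and methylates RNA and proteins. A pathway known to answer amino acid shortage, unfolded protein in the endoplasmic reticulum and oxidative damage is the integrated stress response, in which phosphorylation of eIF2 lowers general translation while the mRNA of the transcription factor ATF4 is translated more. ATF4 and its partners then raise genes for amino acid synthesis and uptake, and for DDIT3 (CHOP), ATF3, CHAC1 and TRIB3.

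The gene groups below lead with that response, so the upstream sequence of the 6 strongest responders among its genes is shown first. They are the 6 genes with the highest ratios among the integrated stress response, NRF2, heat shock and immediate early lists for which RefSeq gives a promoter here, and each run is the 250 bases before the annotated start on GRCh38.p14, 5′ to 3′. Capitals mark TGATGNAA, the core of the composite element that ATF4 and C/EBP factors bind, read on either strand (TTNCATCA on the other), and TGACGTCA, the cyclic AMP response element, which is its own reverse complement.
ATF3: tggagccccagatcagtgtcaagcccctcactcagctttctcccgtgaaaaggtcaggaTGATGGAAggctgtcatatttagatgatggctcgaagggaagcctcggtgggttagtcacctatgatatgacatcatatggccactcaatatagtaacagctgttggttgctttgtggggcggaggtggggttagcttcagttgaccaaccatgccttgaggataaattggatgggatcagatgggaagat
CHAC1: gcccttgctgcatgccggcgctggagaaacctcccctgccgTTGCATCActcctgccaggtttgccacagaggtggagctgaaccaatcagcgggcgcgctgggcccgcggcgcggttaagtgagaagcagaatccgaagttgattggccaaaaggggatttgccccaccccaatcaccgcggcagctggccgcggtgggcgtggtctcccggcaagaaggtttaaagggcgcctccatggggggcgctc
CTH: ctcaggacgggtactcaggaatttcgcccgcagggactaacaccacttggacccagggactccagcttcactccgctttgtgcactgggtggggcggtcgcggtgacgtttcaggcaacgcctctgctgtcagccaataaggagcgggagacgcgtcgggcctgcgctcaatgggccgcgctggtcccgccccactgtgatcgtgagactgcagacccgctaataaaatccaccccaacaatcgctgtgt
DDIT3: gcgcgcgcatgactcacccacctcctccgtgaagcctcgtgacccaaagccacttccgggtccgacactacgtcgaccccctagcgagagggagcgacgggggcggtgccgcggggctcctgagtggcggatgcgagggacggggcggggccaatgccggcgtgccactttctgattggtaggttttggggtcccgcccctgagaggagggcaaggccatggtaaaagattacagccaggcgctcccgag
ASNS: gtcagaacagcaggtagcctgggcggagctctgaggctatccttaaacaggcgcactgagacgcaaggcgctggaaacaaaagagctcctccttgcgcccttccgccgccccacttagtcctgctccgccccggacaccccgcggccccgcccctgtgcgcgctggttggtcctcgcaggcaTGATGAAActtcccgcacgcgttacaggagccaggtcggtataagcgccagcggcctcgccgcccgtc
PPP1R15A: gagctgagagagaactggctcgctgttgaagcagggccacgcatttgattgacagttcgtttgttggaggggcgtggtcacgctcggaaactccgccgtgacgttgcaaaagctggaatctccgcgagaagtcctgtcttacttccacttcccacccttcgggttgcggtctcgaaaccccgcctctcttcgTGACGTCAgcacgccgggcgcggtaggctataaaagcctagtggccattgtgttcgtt
The run of ATF3 is chr1:212565157-212565406 on the plus strand, that of CHAC1 is chr15:40953221-40953470 on the plus strand, and that of CTH is chr1:70411018-70411267 on the plus strand. For DDIT3 it is chr12:57520515-57520764 on the minus strand, for ASNS chr7:97872409-97872658 on the minus strand, and for PPP1R15A chr19:48872171-48872420 on the plus strand. ATF3, DDIT3 and ASNS have 2 starts each in that table, and the one listed first is shown. The TGATGNAA match lies at -191 to -184 from the start in ATF3, at -209 to -202 in CHAC1 and at -68 to -61 in ASNS. PPP1R15A holds the TGACGTCA word at -58 to -51. Neither word is in the windows of CTH and DDIT3, which says only that these letters are not there.

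Over the whole list the composite element was common. TGATGNAA was in the window of 7 of 29 integrated stress response genes with a promoter entry (24.1%). Of the 8272 entries for genes at 5 CPM or more, 2.43% held it. The genes were listed because they are known to answer this pathway, so the high share says nothing about MMS. Among all genes with a 2-fold difference TGATGNAA was no commoner on the side that was higher with MMS. It was in 3.99% of 576 genes that were higher and 4.32% of 903 that were lower. TGACGTCA was in 6.25% of the genes that were higher, in 2.21% of those that were lower and in 3.64% of all. A match is a description of the letters, not of binding.

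The MMS library held 23783285 reads assigned to genes and the DMSO library 18959126, within the range of 16774156 to 31588683 over the series. After TMM scaling 1 read was worth 0.039 CPM (the unit of level here, reads scaled to a common library size) with MMS and 0.0512 CPM with DMSO. Reads aligned to several places made up 32.9% of the MMS table and 32.7% of the DMSO table, and reads outside genes 9.27% and 7.74%. The 20 most abundant genes took 4.5% of gene reads with MMS and 5.32% with DMSO. For scale, U2OS paclitaxel over U2OS DMSO had 10 of 11266 genes past 2-fold (0.0888%). MDA-MB231 DMSO replicate 2 over replicate 1 had 193 of 10826 (1.78%). Paclitaxel is a drug, and MDA-MB231 DMSO replicate 2 is described as having had no treatment. Neither value is thus a measure of the spread between like cultures. CPM are shares of a library, so the amount of RNA per cell and the number of cells do not enter them.

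The label of the line was set against markers. Of 15 osteoblast and mesenchymal markers, 6 reached 5 CPM with MMS and 9 with DMSO, and their summed level was 2038 CPM with MMS and 5871 CPM with DMSO. VIM, FN1, SPARC, CDH2 and COL1A1 were present, whereas SP7 and COL1A2 had no read in either library. IBSP and BGLAP had 1 read each with MMS and none with DMSO, so the late osteoblast markers were absent or nearly so. The 11 epithelial markers summed to 24.7 CPM with MMS and 45.2 CPM with DMSO, the 10 blood and immune markers to 2.11 and 0.614 CPM, and the 6 endothelial markers to 2.14 and 1.95 CPM, in the same order. Other epithelial genes outside those 11 were read as well: KRT8 had 321 CPM with MMS and 550 CPM with DMSO, KRT18 224 and 408 CPM, and CLDN1 62.4 and 30.9 CPM. PTPRC had 6 reads with MMS and 5 with DMSO. CD68, an immune marker outside those 10, had 13.8 CPM with MMS (354 reads) and 21.5 CPM with DMSO (419 reads). ESRP1, a splicing regulator of epithelial cells, had 116 reads with MMS and 0 with DMSO, and GRHL2, a transcription factor of the same cells, had 1 read with MMS and 0 with DMSO. The part of other cell types in the results below was not tested.

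Of 23228 genes in the table, 11496 reached 5 CPM in at least one of the 2 libraries. At 2-fold or more, 842 of them were higher with MMS (7.32%) and 1293 were lower (11.2%), 18.6% in all. The median log2 ratio, MMS over DMSO with 0.5 added to each CPM, was -0.08, with the 5th percentile at -1.53 and the 95th at 1.19. At 4-fold or more there were 124 higher and 271 lower genes, and at 8-fold or more 39 and 62. A majority, 6855 genes (59.6%), lay within 1.5-fold of equality. The genes that were higher held 9.82% of all CPM with MMS against 3.21% with DMSO, and those that were lower held 3.92% with MMS against 11% with DMSO.

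**Figure D1:**
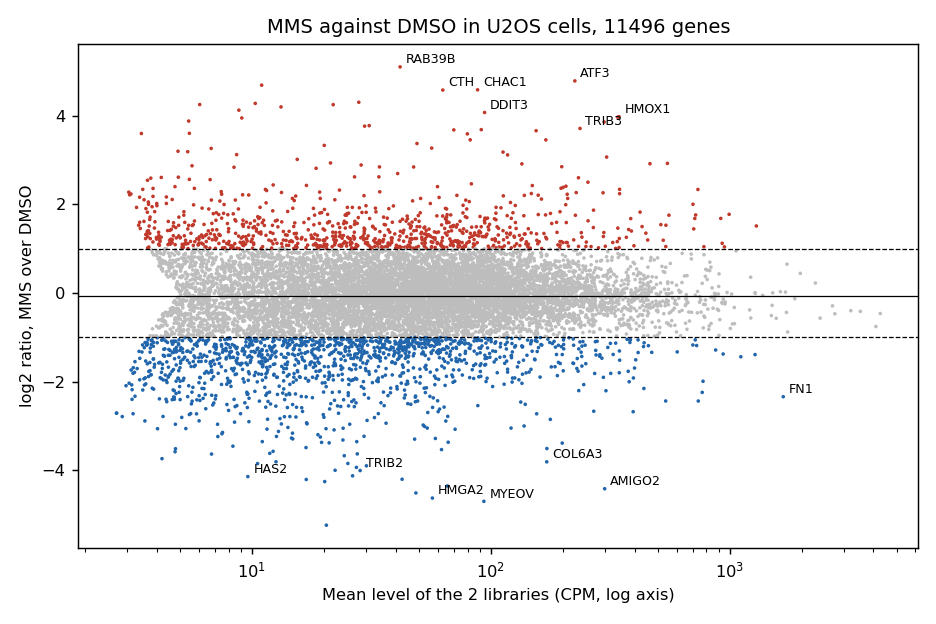
Each point is 1 of the 11496 genes at 5 CPM or more in at least one U2OS library, with its mean level in the MMS and DMSO libraries (CPM, log axis) and its log2 ratio of MMS over DMSO. Red genes are at least 2-fold higher (842), blue genes at least 2-fold lower (1293), dashed lines mark 2-fold and the solid line the median of -0.08.

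The highest ratio among genes with at least 10 CPM belonged to RAB39B, a small GTPase of vesicle traffic known from neurons. It had 81.5 CPM with MMS (2091 reads) against 1.89 CPM with DMSO (37 reads), and 0.781, 3.57 and 1.76 CPM with doxorubicin, etoposide and paclitaxel. Its log2 ratio was 5.10, with an exact 95% interval of 4.96 to 5.94 that covers counting error only, as all intervals here do. The 0.5 added to each CPM pulls ratios of low genes toward 0, so that a ratio can lie outside its interval.

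Next came genes of the integrated stress response. ATF3, a bZIP transcription factor made early in many stresses, had 434 CPM with MMS against 15.3 CPM with DMSO (log2 ratio 4.78). CHAC1, an enzyme that degrades glutathione, had 170 CPM with MMS against 6.61 CPM with DMSO (4.58, 4.43 to 4.95). CTH, which makes cysteine from cystathionine, had 121 CPM with MMS against 4.61 CPM with DMSO (4.58, 4.42 to 5.04). In all 3 genes the MMS library stood far above every other U2OS library, the nearest of which was doxorubicin for ATF3 at 56.5 CPM and etoposide for CHAC1 at 17 CPM and for CTH at 15.9 CPM.

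The same held for the rest of the leading set. DDIT3, the pro-death factor CHOP, had 178 CPM with MMS against 10.1 CPM with DMSO (4.07, 3.93 to 4.35). ASNS, asparagine synthetase, had 639 CPM with MMS against 40.5 CPM with DMSO (3.96, 3.88 to 4.08). PPP1R15A (GADD34), the subunit that brings a phosphatase to eIF2 and so ends the response, had 559 CPM with MMS against 38.1 CPM with DMSO (3.86, 3.77 to 3.98). HMOX1, the haem-degrading enzyme that NRF2 controls, had 648 CPM with MMS against 40.7 CPM with DMSO (3.98, 3.89 to 4.10). ATF4 itself, much of whose control is at translation, had 804 CPM of mRNA with MMS against 278 CPM with DMSO (1.53, 1.49 to 1.57).

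Other genes among the 15 highest have no shared role. CDO1, which oxidises cysteine, had 53.8 CPM with MMS against 2.25 CPM with DMSO. RND1, a small GTPase that rounds up cells, had 25.5 CPM with MMS against 0.922 CPM with DMSO, and doxorubicin was close at 14.8 CPM. FUT1, a fucosyltransferase of the H blood group antigen, had 20.1 CPM with MMS against 0.563 CPM with DMSO, BEST1, an anion channel, 11.9 against 0.154 CPM, and GABRG1, a GABA receptor subunit, 17.1 against 0.512 CPM. These 3 genes had 11, 3 and 10 reads with DMSO, so their ratios are imprecise: for BEST1 the interval ran from 4.72 to 8.56. ACRC had 42 CPM with MMS against 1.74 CPM with DMSO.

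Among the 15 genes that fell furthest were several of adhesion, matrix and morphogen signalling. MYEOV had 6.47 CPM with MMS against 181 CPM with DMSO (log2 ratio -4.70, interval -5.04 to -4.58). HMGA2, an architectural chromatin protein of fetal and tumour cells, had 3.98 CPM with MMS against 110 CPM with DMSO (-4.62, -5.09 to -4.50). AMIGO2, an adhesion protein, had 26.4 CPM with MMS against 573 CPM with DMSO (-4.42, -4.55 to -4.33). All 3 were lowest in the MMS library among the 5 U2OS libraries.

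MARCH4, a membrane ubiquitin ligase, had 3.63 CPM with MMS and 93.5 CPM with DMSO. TRIB2, a Tribbles pseudokinase, had 2.88 CPM with MMS and 53.9 CPM with DMSO, while 24.8 to 77.1 CPM were seen with the other 3 drugs. NOG (noggin), the secreted BMP antagonist, had 1.25 CPM with MMS and 24 CPM with DMSO. HAS2, the main hyaluronan synthase of mesenchymal cells, had 0.585 CPM (15 reads) with MMS and 18.6 CPM with DMSO, and etoposide was as low at 0.811 CPM. Others of the 15 lowest, LRRC4C, ZNF608, ST6GALNAC5, CYP24A1, BNC2, ESM1 and COL6A3, had log2 ratios of -4.25 to -3.81.

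Read against the 4 other U2OS libraries at once, 232 genes were at least 2-fold above the highest of them with MMS (1.91% of 12117 genes at 5 CPM) and 376 were at least 2-fold below the lowest (3.1%). The same counts were 797 (6.58%) and 1244 (10.3%) for doxorubicin, 126 (1.04%) and 116 (0.957%) for etoposide, 1 (0.00825%) and 0 for paclitaxel, and 1 each way for DMSO (0.00825%). The genes set apart furthest on the upper side, beside RAB39B, GABRG1, BEST1, FUT1 and CHAC1, were ALDH1L2, TRIB3 and GDF15. ALDH1L2, a mitochondrial folate enzyme, had 55.6 CPM with MMS against 2.39 to 3.64 CPM in the other 4 libraries. TRIB3, a pseudokinase that feeds back on ATF4, had 440 CPM with MMS, 5.18 CPM with doxorubicin, 34.5 CPM with etoposide, 31.1 CPM with paclitaxel and 33.1 CPM with DMSO. GDF15, a secreted stress hormone, had 287 CPM with MMS against 13.5 to 28.8 CPM elsewhere.

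On the lower side the genes set apart furthest were TRIB2, ESM1, A2M, MAF, GAS1, COL5A3, COL6A3 and BMP5. COL6A3, a collagen VI chain, had 22.4 CPM with MMS, 478 CPM with doxorubicin, 138 CPM with etoposide, 293 CPM with paclitaxel and 321 CPM with DMSO. BMP5, a bone morphogenetic protein, had 3.27 CPM with MMS, against 74.3, 21.8 and 32.7 CPM with doxorubicin, etoposide and paclitaxel and 38.8 CPM with DMSO. GAS1, a membrane protein that binds Hedgehog, had 1.36 CPM with MMS against 12.5 to 22.4 CPM in the other libraries. Ratios of all 4 drugs share the 1 DMSO library, so they are set side by side and not correlated.

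By groups, the integrated stress response list stood out. Of its 37 members at 5 CPM, 31 were at least 2-fold higher with MMS and 0 were lower, where 7.32% and 11.2% of all genes were, and its median log2 ratio was 2.23 against -0.08 for all genes. The 6 others were SLC7A5, EIF4EBP1, DDIT4, ATF5, SLC38A2 and SESN3, with log2 ratios of 0.95 to -0.09. Among the higher members were FGF21, a hormone gene with 174 reads with MMS and 2 with DMSO (interval 4.17 to 9.11), INHBE with 12.6 CPM with MMS against 0.87 CPM with DMSO, and NUPR1, a stress-inducible chromatin protein, with 130 CPM with MMS against 9.73 CPM with DMSO. STC2, stanniocalcin, had 970 CPM with MMS against 128 CPM with DMSO. The list's median was 0.02 with doxorubicin, 0.09 with etoposide and -0.14 with paclitaxel, each over the shared DMSO library. The same 7.32% and 11.2% are the base for the count of each U2OS list below.

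The machinery upstream of ATF4 lay mostly within 2-fold at the mRNA level. Of 16 eIF2 kinases, eIF2 and eIF2B subunits and phosphatase subunits, 1 was higher and 1 lower, and the median was -0.0025. EIF2S2, the beta subunit of eIF2, had 273 CPM with MMS against 106 CPM with DMSO (1.37). EIF2AK4 (GCN2), the kinase that senses uncharged tRNA, had 59.2 CPM with MMS against 212 CPM with DMSO (-1.83). EIF2AK3 (PERK), the kinase of the endoplasmic reticulum, had 39 CPM with MMS against 26.4 CPM with DMSO (0.55).

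Genes of amino acid metabolism that ATF4 is known to control were higher in number. Of 16 serine, folate and cysteine enzymes 8 were at least 2-fold higher and 0 lower, with a median of 0.91. PHGDH, the first enzyme of serine synthesis, had 578 CPM with MMS against 114 CPM with DMSO (2.34, interval 2.28 to 2.41), and MTHFD2, a mitochondrial folate enzyme, 1230 against 243 CPM (2.33, 2.29 to 2.38). MTHFD1, MTHFD1L, MTR and MAT2A of the same list lay between -0.36 and 0.01. Of 20 cytosolic aminoacyl-tRNA synthetases, which charge tRNAs, 9 were higher and 1 was lower (VARS, 141 CPM with MMS against 284 CPM with DMSO), with a median of 0.68. GARS had 1124 CPM with MMS against 281 CPM with DMSO, CARS 329 against 82.5 CPM and SARS 860 against 254 CPM. Enzymes of the same list for arginine, aspartate, phenylalanine and lysine (RARS, DARS, FARSA, FARSB, KARS) had ratios of -0.39 to 0.04.

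Of 19 amino acid transporters 6 were higher and 1 lower, with a median of 0.58. SLC7A11, the cystine antiporter, had 820 CPM with MMS against 108 CPM with DMSO (2.92, 2.86 to 2.99). Its heavy chain partner SLC3A2 had 1090 CPM with MMS against 340 CPM with DMSO, and SLC1A4, a serine and alanine carrier, 239 against 31.3 CPM. SLC1A1, a glutamate carrier, was the lower member, with 1.83 CPM with MMS against 14.1 CPM with DMSO. SLC7A5 and SLC38A2, carriers of leucine and of small neutral amino acids, had log2 ratios of 0.95 and 0.31.

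NRF2 is the transcription factor that raises glutathione and detoxification genes when its inhibitor KEAP1 is modified at cysteines. Of 38 genes on the list of its targets, 19 were at least 2-fold higher with MMS and 1 was lower, with a median of 1.00. OSGIN1 had 148 CPM with MMS against 11.8 CPM with DMSO (3.59, 3.45 to 3.84). GCLM, the modifier subunit of glutathione synthesis, had 260 CPM with MMS against 56 CPM with DMSO, SRXN1, sulfiredoxin, 572 against 121 CPM, and NQO1, a quinone reductase, 396 against 142 CPM. Enzymes of high level on the same list differed little: PRDX1 had 895 CPM with MMS against 986 CPM with DMSO, and TXN, thioredoxin, had a log2 ratio of -0.01. ABCC4, an efflux pump, was the lower one, with 16.1 CPM with MMS against 39.6 CPM with DMSO. HMOX1 and SLC7A11 belong to more than 1 stress pathway, and AKR1C1, AKR1C2 and TRIM16L have near-identical relatives, so that reads may be split among copies and their values are uncertain.

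**Figure D2:**
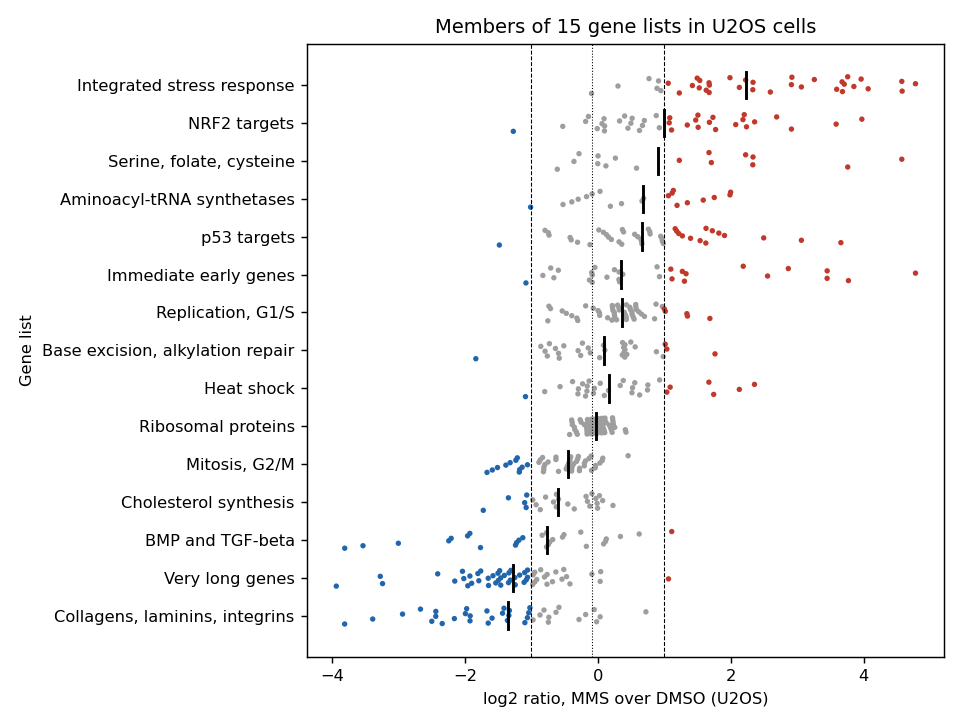
Log2 ratios of MMS over DMSO in U2OS cells for the members at 5 CPM or more of 15 gene lists, 1 point per gene, with the list's median as a black bar, red points at least 2-fold higher and blue points at least 2-fold lower. The integrated stress response list lies furthest right (median 2.23), ribosomal proteins lie together near 0, and collagens, laminins and integrins lie furthest left (median -1.35); the dotted line is the median of all genes.

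Genes that p53 is known to activate were higher in part. U2OS cells carry wild-type p53. Of 43 listed targets 14 were at least 2-fold higher with MMS and 1 was lower (STEAP3, 49.8 CPM with MMS against 140 CPM with DMSO), with a median of 0.67. CDKN1A (p21), the inhibitor of cyclin-dependent kinases, had 767 CPM with MMS against 263 CPM with DMSO (1.54). MDM2, the ubiquitin ligase of p53, had 733 CPM with MMS against 321 CPM with DMSO (1.19, 1.15 to 1.23). GADD45A had 434 CPM with MMS against 76.4 CPM with DMSO (2.50) and SESN2, sestrin 2, 546 against 64.8 CPM (3.06). SESN2 is also on the integrated stress response list, and GDF15, GADD45A and TNFRSF10B are known to answer that pathway too, so the highest members of the list are shared with other pathways. TP53I3 and APAF1, of the same list, had ratios of -0.74 and -0.79.

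Death genes had members past 2-fold in both directions, where 7.32% of all genes were higher and 11.2% lower. Of 10 death receptor genes 3 were higher and 0 lower: TNFRSF10D, a decoy receptor of the ligand TRAIL, had 89.9 CPM with MMS against 8.24 CPM with DMSO (3.37, 3.22 to 3.69), TNFRSF10B, its signalling receptor DR5, 658 against 186 CPM (1.82), and FAS 94.5 against 40.3 CPM (1.22). Of 21 BCL2 family and caspase genes 1 was higher and 2 were lower, shares no greater than those of all genes. PMAIP1 (NOXA), a pro-death member, had 386 CPM with MMS against 125 CPM with DMSO. BCL2L1, which gives the survival protein BCL-XL, had 83.1 CPM with MMS against 384 CPM with DMSO (-2.20, -2.28 to -2.14), and BMF, a pro-death member, 2.69 against 25.6 CPM (-3.03).

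Genes for repair of methylated bases lay mostly within 2-fold. Of 32 base excision and alkylation repair genes 3 were higher and 1 lower, where 7.32% and 11.2% of all genes were, and the median was 0.10. APLF, an accessory factor of strand break repair, had 12.5 CPM with MMS against 3.33 CPM with DMSO (1.76), MBD4, a glycosylase for mismatched thymine, 85.3 against 41.2 CPM (1.04), and NEIL1, a glycosylase, 5.07 against 2.25 CPM (1.02). NTHL1, a glycosylase for oxidised pyrimidines, was the lower one with 4.52 CPM with MMS against 17.4 CPM with DMSO (-1.83).

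The enzymes closest to MMS damage lay within 2-fold. MPG, the glycosylase that removes 3-methyladenine, had 21.6 CPM with MMS against 32.5 CPM with DMSO (-0.58, -0.76 to -0.42). MGMT, which takes the methyl group off O6-methylguanine, had 125 reads with MMS and 119 with DMSO, and its interval of -0.70 to 0.05 includes 0. ALKBH3 and ALKBH2, the dioxygenases that reverse 1-methyladenine and 3-methylcytosine, had log2 ratios of 0.99 and 0.11. XRCC1, LIG3, PARP1 and APEX1, of the later repair steps, lay between -0.79 and -0.64.

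Other repair lists also had few members past 2-fold. None of 18 nucleotide excision repair genes passed 2-fold in either direction, with XPC at 0.97 and ERCC2 at -0.98 the furthest. Of 33 homologous recombination and Fanconi genes 0 were higher and 2 lower, RAD51B with 3.51 CPM with MMS against 10.8 CPM with DMSO and FANCF with 8.19 against 19.9 CPM, while BRCA1 and BRCA2 were at 0.81 and 0.79. Of 19 genes of translesion synthesis and fork tolerance 1 passed, USP1 at 1.00, and 1 of 8 mismatch repair genes, the exonuclease EXO1, with 144 CPM with MMS against 51 CPM with DMSO (1.49). Of 23 checkpoint genes the phosphatase CDC25A alone passed, with 145 CPM with MMS against 63.9 CPM with DMSO (1.17).

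Cell cycle genes had medians on either side of 0. Of 50 replication and G1/S genes 5 were at least 2-fold higher with MMS and 0 lower, a share near the 7.32% of all genes that were higher, with a median of 0.36 and 40 members above 0. ORC6, an origin recognition subunit, had 148 CPM with MMS against 45.6 CPM with DMSO (1.69), CCNE2, cyclin E2, 93 against 36.2 CPM (1.35), and DTL, which helps degrade licensing factors, 240 against 94.2 CPM (1.34). Of 49 mitosis genes 0 were higher and 11 lower, where 11.2% of all genes were lower, with a median of -0.44 and 4 members above 0. KIF20A, a kinesin of cytokinesis, had 61.7 CPM with MMS against 197 CPM with DMSO (-1.67), PLK1, a mitotic kinase, 56.9 against 172 CPM (-1.59), and CCNB1, cyclin B1, 198 against 436 CPM (-1.14). CDK1, the kinase that cyclin B1 binds, had 334 CPM with MMS against 327 CPM with DMSO (0.03), so the list did not move as a block.

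The mitosis genes share promoter words that are known from genes of that phase. CCAAT, which reads ATTGG on the other strand, was in the 250-base window of 33 of 40 mitosis genes with an entry (82.5%), against 42.4% of all genes at 5 CPM, and TTTGAA, or its reverse complement, in 23 of 40 (57.5%), against 12%. The mitosis genes were listed for their known role, so their shares say nothing about MMS. For the genes at least 2-fold lower with MMS as a whole, which include the lower mitosis genes, the shares were 42.9% and 18.1%. Of 21 G1 cyclins, their kinases and inhibitors 2 were higher and 3 lower, the lower ones being CDK6 with 88.9 CPM with MMS against 283 CPM with DMSO, CCND1, cyclin D1, with 110 against 331 CPM, and CDKN2C. Of 8 replication-dependent histone genes at 5 CPM, 4 were lower and 0 higher. Most mRNAs of such genes lack a poly(A) tail, and the genes have near-identical copies. How RNA was selected is not stated in the labels, so their values are uncertain.

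Immediate early genes, the first transcripts to answer growth factors and stress, were split. Of 30 members 12 were higher with MMS and 1 was lower, and the median was 0.35. FOS, a subunit of AP-1, had 58.1 CPM with MMS against 3.79 CPM with DMSO (3.77, 3.60 to 4.30), EGR1, a zinc finger factor, 312 against 28.1 CPM (3.45, 3.35 to 3.60), and ARC 151 against 13.3 CPM (3.45). KLF6 was the lower one, with 40 CPM with MMS against 85.1 CPM with DMSO, and MYC, CTGF and CYR61 had ratios of -0.83, -0.71 and -0.59. Of 12 MAP kinase phosphatase and Sprouty genes 4 were higher and 0 lower, led by DUSP2 (58.8 CPM with MMS against 9.17 CPM with DMSO) and DUSP1 (185 against 40.3 CPM).

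Cytokine and NF-kB genes went both ways. Of 24 such genes 6 were higher and 3 lower. TRAF1, an adaptor of TNF receptors, had 27.9 CPM with MMS against 3.02 CPM with DMSO (3.01), and etoposide gave 28.9 CPM. IL8, a neutrophil chemokine, had 348 CPM with MMS against 65.1 CPM with DMSO (2.41, 2.33 to 2.50), and IL11, a cytokine of the IL-6 family, 252 against 46.6 CPM (2.42, 2.33 to 2.54). IL6 had 43 CPM with MMS against 43.7 CPM with DMSO, with an interval of -0.16 to 0.11. CXCL1, another neutrophil chemokine, had 3.98 CPM with MMS against 44.1 CPM with DMSO (-3.32, -3.78 to -3.17), so 2 chemokines for the same receptor family lay on opposite sides.

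Some chaperone genes passed 2-fold, where 7.32% of all genes were higher and 11.2% lower. Of 29 endoplasmic reticulum chaperone and unfolded protein response genes 4 were higher and 0 lower, with a median of 0.15. The 4 were XBP1, the transcription factor that IRE1 splices (489 CPM with MMS against 102 CPM with DMSO, 2.26), ERN1, which encodes IRE1 (31.8 against 6.86 CPM, 2.13), DNAJB9 (73.7 against 23 CPM, 1.66) and HERPUD1 (191 against 63 CPM, 1.59). HSPA5 (BiP), the main chaperone of that compartment, had 2123 CPM with MMS against 1353 CPM with DMSO, a log2 ratio of 0.65. Of 31 heat shock genes 6 were higher and 1 lower (HSPE1, -1.09), with a median of 0.16. ZFAND2A had 83.1 CPM with MMS against 18.6 CPM with DMSO (2.13), HSPB8 158 against 49.2 CPM (1.67) and HSPA6 9.94 against 1.54 CPM (2.36). HSPA8, the constitutive chaperone, had 1928 CPM with MMS against 2856 CPM with DMSO (-0.57). HSPA1A and HSPA1B, which share nearly all of their sequence, had log2 ratios of 0.75 and 0.93 and are uncertain singly. None of 30 proteasome subunits passed 2-fold, and their ratios ran from -0.45 to 0.46.

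Housekeeping groups differed in their range, which was narrowest for the cytosolic ribosomal proteins. All 71 cytosolic ribosomal protein genes at 5 CPM lay within 2-fold, from -0.42 to 0.42, with a median of -0.02. The 35 nuclear genes of the respiratory chain lay between -0.82 and 0.17, with a median of -0.24. Of 36 ribosome biogenesis and RNA polymerase I genes 2 were higher, TAF1A and RRN3, and 2 lower, BOP1 and RRS1, with a median of -0.01. Their ratios ran from -1.355 to 1.232.

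Autophagy genes were higher in part. Of 33 members 5 were higher and 1 lower. MAP1LC3B, which marks autophagosomes, had 377 CPM with MMS against 78.2 CPM with DMSO (2.26), GABARAPL1, of the same family, 305 against 85.2 CPM (1.83), and SQSTM1 (p62), a cargo receptor that NRF2 also raises, 1400 against 436 CPM (1.68). CTSB, a lysosomal protease, was the lower one with 600 CPM with MMS against 1628 CPM with DMSO (-1.44).

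Lipid synthesis genes were lower in part, where 7.32% of all genes were higher and 11.2% lower. Of 25 cholesterol synthesis and uptake genes 0 were higher and 5 lower, with a median of -0.59: SQLE, squalene epoxidase, had 68.3 CPM with MMS against 226 CPM with DMSO (-1.72). HMGCS1, CYP51A1 and FDPS of the same pathway lay between -0.03 and 0.03. Of 13 fatty acid synthesis genes 0 were higher and 4 lower, with ELOVL6, an elongase, at 10.1 CPM with MMS against 61.4 CPM with DMSO (-2.54) and ACACA at 61.4 against 167 CPM (-1.43). Of 31 glycolysis and hypoxia genes 2 were higher and 2 lower, shares no greater than those of all genes, with a median of -0.40. VEGFA (212 CPM with MMS against 63 CPM with DMSO) and ADM were higher, and LDHA (508 against 1240 CPM) and PFKM lower.

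Genes of the matrix and of adhesion were lower in larger numbers than any other functional list described here. Of 38 collagens, laminins, integrins and matrix proteins 25 were at least 2-fold lower with MMS and 0 higher, with a median of -1.35. ITGA2, the integrin chain that binds collagen, had 34.4 CPM with MMS against 364 CPM with DMSO (-3.39, -3.51 to -3.30), and ITGA6, a laminin receptor chain, 73 against 467 CPM (-2.67, -2.75 to -2.60). THBS1, thrombospondin, had 230 CPM with MMS against 1248 CPM with DMSO and TNC, tenascin C, 168 against 912 CPM. FN1, fibronectin, had 553 CPM with MMS against 2801 CPM with DMSO (-2.34, -2.37 to -2.31). COL1A1, COL7A1 and ITGB3 were at -0.02, 0.04 and -0.05, so the lower members did not include every abundant matrix gene.

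Of 16 osteoblast and mesenchymal genes 10 were lower and 0 higher, with a median of -1.26. RUNX2, the master factor of bone, had 2.03 CPM with MMS (52 reads) against 23.3 CPM with DMSO (455 reads), a log2 ratio of -3.24 with an interval of -3.96 to -3.11. CDH11, osteoblast cadherin, had 2.5 CPM with MMS against 16.2 CPM with DMSO, VIM, vimentin, 706 against 1850 CPM, and ALPL, alkaline phosphatase, 2.46 against 7.83 CPM. In bulk RNA, fewer cells that express a gene and less of its RNA per cell cannot be told apart.

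Signalling genes of the BMP and TGF-beta families followed. Of 28 members 12 were lower and 1 higher, with a median of -0.77. TGFB2, a ligand, had 9.47 CPM with MMS against 115 CPM with DMSO (-3.53, -3.80 to -3.41), TGFBR2, a receptor, 30.3 against 246 CPM (interval -3.13 to -2.91), BMP4, a ligand, 7.25 against 36.2 CPM (-2.24), and ID1, a target of BMP signalling, 53.4 against 209 CPM (-1.96). BAMBI, a decoy receptor, was the higher one with 11.8 CPM with MMS against 5.17 CPM with DMSO. Of 25 Notch and Wnt genes 9 were lower and 2 higher, HEY1 and NKD1, and of 23 YAP and TEAD targets 7 were lower and 2 higher, ANKRD1 and F3.

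Median ratios were lowest for the longest genes and did not fall steadily with span. Over all genes with a known span, the Spearman coefficient between span and log2 ratio was -0.16. The part of span in the lists above was not tested. Spans were taken from the GENCODE annotation for 10332 of the 11496 genes (89.9%). The median log2 ratio was -0.21 for 755 genes under 5 kb, 0.07 for 2836 genes of 20 to 50 kb, -0.25 for 1325 genes of 100 to 200 kb, -0.65 for 699 genes of 200 to 500 kb and -1.28 for 130 genes of 500 kb or more. In the last group 87 genes (66.9%) were at least 2-fold lower and 3 were higher, where 11.2% and 7.32% of all genes were. The median span was 23.1 kb for the genes that were higher, 73.6 kb for those that were lower and 34.8 kb for all.

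Level moves with span, since the longest genes had a median mean level of 16.7 CPM and those of 20 to 50 kb 50.3 CPM. With genes divided by level into 3 groups of equal size, the median ratio in the lowest group was -0.95 over 200 kb (402 genes) and -0.07 under 20 kb (1238 genes). In the middle group it was -0.68 (267 genes) and -0.08 (1133 genes), and in the highest -0.56 (160 genes) and -0.04 (1102 genes). The difference between long and short genes was present in each group. Level here is the mean of the 2 libraries that make the ratio, and its part in the difference was not tested.

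**Figure D3:**
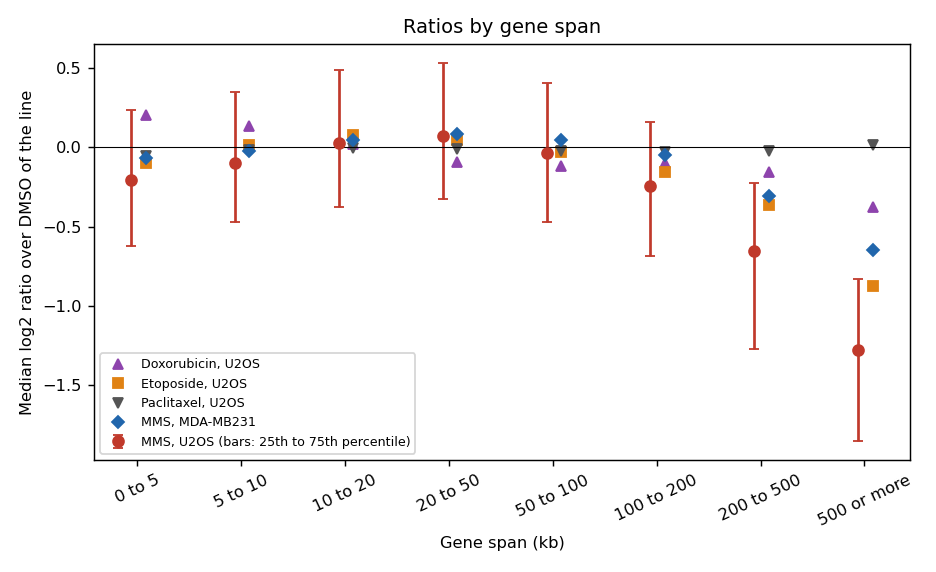
Median log2 ratio over the DMSO library of the same line by gene span in kb. Red circles are MMS in U2OS cells with bars from the 25th to the 75th percentile of genes, and the other symbols are medians for the other drugs in U2OS cells and for MMS in MDA-MB231 cells; with MMS in U2OS cells the median is -0.65 from 200 to 500 kb and -1.28 at 500 kb or more.

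Single long genes show the range. BNC2, a zinc finger factor of mesenchyme with a span of 461 kb, had 2.92 CPM with MMS against 51.8 CPM with DMSO (-3.93, -4.51 to -3.81). TCF4, a bHLH factor of 443 kb, had 2.34 CPM with MMS against 26.9 CPM with DMSO (-3.27), and MAML2, a Notch coactivator of 367 kb, 0.975 against 13.4 CPM (-3.24). RUNX2 spans 336 kb. Some long genes did not fall: TCF12 had 168 CPM with MMS against 178 CPM with DMSO and CSMD1 21.5 against 20.8 CPM. A few rose, among them CREB5, a bZIP factor of 527 kb, with 128 CPM with MMS against 29.5 CPM with DMSO (2.09, 1.98 to 2.24), MAP2, a microtubule protein of 310 kb, with 12.7 against 2.2 CPM, and BACH1, the repressor of HMOX1, of 437 kb, with 260 against 122 CPM. Many short genes fell as well, such as NOG (1.89 kb), GAS1 (2.83 kb) and AMIGO2 (4.24 kb).

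For the longest genes the medians of the other libraries lay nearer to 0 or above it. At 500 kb or more the median was -0.88 with etoposide, -0.37 with doxorubicin and 0.01 with paclitaxel in U2OS cells, all over the DMSO library that the MMS ratios use. In MDA-MB231 cells, with a DMSO library of their own, it was -0.64 with MMS for 93 genes.

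MDA-MB231 cells, from breast cancer and with mutant p53, were given the same dose and time of MMS. Their MMS library was set against DMSO replicate 2, whose title has the same form. That library has DMSO as its treatment label but is described as having had no treatment, so every MDA-MB231 ratio rests on a control whose vehicle is uncertain. There 292 of 10783 genes (2.71%) passed 2-fold upward and 367 (3.4%) downward, 6.11% in all, against 842 and 1293 in U2OS cells. The MDA-MB231 MMS library was deeper and its DMSO library shallower than in U2OS, at 26448212 and 16774156 gene reads. Over the 10236 genes at 5 CPM in both lines the log2 ratios correlated with Pearson's r = 0.72 and a Spearman coefficient of 0.71. That is a description across genes, which are not independent, and the 2 ratios share no library, although all were scaled together.

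Most of what passed in MDA-MB231 cells also passed in U2OS cells. More genes passed in U2OS cells, so the reverse share, which counts the same shared genes, was bound to be lower. Of 671 genes higher in U2OS and measured in both lines, 186 (27.7%) were also higher in MDA-MB231 cells, which are 67.9% of the 274 genes higher there. Of 993 genes lower in U2OS, 220 (22.2%) were lower in MDA-MB231 cells, 76.4% of the 288 lower there. The median MDA-MB231 ratio of the U2OS higher set was 0.72 and that of the lower set -0.61, so most stayed short of 2-fold with the same sign: 94.2% and 93.4% had it. The share with the same sign over all genes measured in both lines was not computed, and no difference between the lines was tested.

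**Figure D4:**
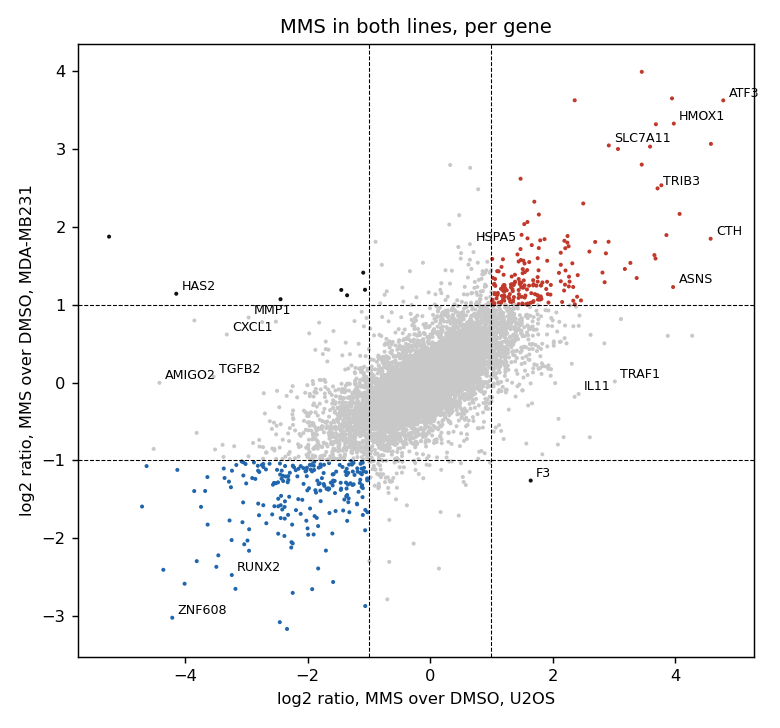
Log2 ratio of MMS over DMSO in U2OS cells (x axis) and in MDA-MB231 cells (y axis) for the 10236 genes at 5 CPM in both lines. Red and blue genes passed 2-fold the same way in both (186 and 220), black genes passed in opposite ways, and dashed lines mark 2-fold; the cloud is wider along the U2OS axis.

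The stress genes were shared, at lower ratios in MDA-MB231 cells in most cases. Of 32 integrated stress response genes measured there 20 were higher, where 2.71% of all genes were, with a median of 1.23. Of 36 NRF2 targets 15 were higher, with a median of 0.47. ATF3, at 4.78 in the bone line, stood at 3.63 in MDA-MB231 cells, and HMOX1, at 3.98, stood at 3.33. SLC7A11 was as high, at 2.92 in U2OS and 3.05 in MDA-MB231 cells. ASNS differed more, at 3.96 in U2OS and 1.23 in MDA-MB231 cells, and CTH at 4.58 and 1.85. For ASNS the levels were 639 CPM with MMS against 40.5 CPM with DMSO in U2OS. In MDA-MB231 cells they were 239 against 102 CPM, and the part of the DMSO level was not tested. Endoplasmic reticulum genes went both ways between the lines: HSPA5 was at 0.65 in U2OS and 1.78 in MDA-MB231 cells (3330 CPM with MMS against 970 CPM with DMSO), while XBP1 was at 2.26 and 1.75 and ERN1 at 2.13 and 1.30. Of 29 genes of that list 4 were higher in U2OS, where 7.32% of all genes were, and 5 in MDA-MB231 cells, where 2.71% were.

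Of the p53 targets 14 of 43 were higher in U2OS, where 7.32% of all genes were, and 6 of 37 in MDA-MB231 cells, where 2.71% were. CDKN1A was alike, at 1.54 in U2OS and 1.53 in MDA-MB231 cells. MDM2 was at 1.19 in U2OS and 0.43 in MDA-MB231 cells, and TNFRSF10B at 1.82 and 0.25. Matrix genes were lower in 25 of 38 cases in U2OS, where 11.2% of all genes were, and in 5 of 33 in MDA-MB231 cells, where 3.4% were, with a median of -0.56 there. FN1 was at -2.34 in U2OS and -0.17 in MDA-MB231 cells.

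Genes with the greatest distance between the lines were F3, FAM46C, TRAF1, IL11, ASNS and CTH on the side of U2OS, and HAS2, AMIGO2, CXCL1, MMP1, MARCH4 and TGFB2 on the other. AMIGO2 had 163 CPM with MMS and 163 CPM with DMSO in MDA-MB231 cells, where in U2OS it was among the 15 lowest. TGFB2 had 267 CPM with MMS and 253 CPM with DMSO in MDA-MB231 cells, and a ratio of -3.53 in U2OS. MMP1, a collagenase, had 5.46 CPM with MMS against 45.9 CPM with DMSO in U2OS, and 2402 against 1345 CPM in MDA-MB231 cells. TRAF1 had 72.1 CPM with MMS and 71.4 CPM with DMSO in MDA-MB231 cells, and IL11 156 and 173 CPM, while both were higher in U2OS with MMS. RUNX2 was lower in both, at -3.24 in U2OS and -2.47 in MDA-MB231 cells.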

How the data were processed

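The authors deposited, for each library, whole-number read counts per gene symbol for 23228 genes with 5 summary rows, which stayed out of library sizes; reads aligned to several places were 32.9% and reads outside genes 9.27% of the MMS table. CASAVA 1.8.2, TopHat2 2.0.8b and HTSeq, and the builds hg19 and mm9, are named per the submitters' processing notes. Neither strand setting nor RNA selection is given in the sources used here; overlapping antisense genes and near-identical copies cannot be told apart. Counts were scaled by TMM over all 11 libraries (edgeR 4.0.16, R 4.3.3, filterByExpr) and expressed as CPM. Log2 ratios had 0.5 added to each CPM; a gene entered the counts if either library reached 5 CPM, with 2-fold as the threshold. Each 95% interval of a ratio comes from the exact Clopper-Pearson method and reflects counting error alone. The ratio and interval code was tested on simulated data. With 1 library a side no test was run; nothing says whether libraries came from separate cultures.

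Named genes are the 15 highest and 15 lowest ratios with a larger CPM of at least 10, the 8 furthest above and the 8 furthest below the other U2OS libraries, the 6 and 6 with the greatest difference between lines, members of 50 lists (the 4 with the largest ratios and, to describe a list, others named for contrast after their values were seen), and some fixed stress genes. Genes with placeholder symbols, pseudogenes, antisense genes and small RNAs enter the counts without being named, and a few genes that the rule names are not reported here. The members and lists were chosen with earlier results of these data known. Spans came from GENCODE v29 (GRCh38) by symbol, and promoters from RefSeq (GRCh38.p14); the files' own build gives no coordinates here. Alternatives were other scalings (total gene counts, DESeq2 1.42.0 size factors, TMM over the pair), minimums of 1 and 10 CPM or none, 0.1 or 1 added, and other DMSO partners in MDA-MB231 cells.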

Additional observations from a re-analysis of the deposited data

Results flagged for a closer look

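In 7 genes MMS gave a difference of at least 2-fold in opposite directions in the 2 lines, each at 5 CPM or more in both. With 1 library a group these differences were not tested. A further gene of this kind has a placeholder symbol and is not named. Differences below are the U2OS log2 ratio minus the MDA-MB231 log2 ratio.

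HAS2, hyaluronan synthase, was at -4.14 in U2OS and 1.14 in MDA-MB231 cells (114.9 CPM with MMS against 51.8 CPM with DMSO), a difference of -5.28. IL24, a cytokine of the IL-10 family, was at -2.44 in U2OS and 1.07 in MDA-MB231 cells, a difference of -3.51, with 1.4 CPM with MMS against 9.83 CPM with DMSO in U2OS. F3, tissue factor, which starts blood clotting, was the only one in the other direction, at 1.64 in U2OS (17.2 CPM with MMS against 5.17 CPM with DMSO) and -1.26 in MDA-MB231 cells (293 against 701 CPM), a difference of 2.90.

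ZNF542 was at -1.45 in U2OS and 1.19 in MDA-MB231 cells, a difference of -2.64. HIST2H2BE, a histone gene with near-identical copies, was at -1.09 in U2OS and 1.41 in MDA-MB231 cells, a difference of -2.50, and the MDA-MB231 value rests on 145 reads with MMS and 30 with DMSO. SCG5, a secretory granule chaperone, was at -1.35 in U2OS and 1.12 in MDA-MB231 cells, a difference of -2.48. RBM43 was at -1.06 in U2OS and 1.19 in MDA-MB231 cells, a difference of -2.25. Counting intervals reach inside 2-fold in U2OS for RBM43 (-1.53 to -0.79) and HIST2H2BE (-1.25 to -0.96), and in MDA-MB231 cells for RBM43 (0.85 to 1.86), IL24 (0.91 to 1.27), ZNF542 (0.93 to 1.59) and SCG5 (lower bound 0.83).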

How the results depend on the processing

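No value changed sign past 2-fold under the alternatives run, and each count of genes stayed within 1.5 times its reported value. The count that was higher in U2OS cells with MMS was 715 to 1200 and the count that was lower 1090 to 1659 over other scalings, minimums and added CPM, and 602 and 1009 where the whole counting interval had to pass 2-fold. With total gene counts 44.9% of the genes past 2-fold were higher, and 39.4% with the scaling used; the median log2 ratio of all genes was then -0.01. With the U2OS paclitaxel library in place of the DMSO library, an alternative chosen after seeing the data, 809 genes were higher and 1290 lower. Without MDA-MB231 DMSO replicate 2, replicate 1 as the partner gave 419 higher and 539 lower genes in MDA-MB231 cells. Of 174 named genes past 2-fold, at most 2 fell short of it with total gene counts, DESeq2 size factors, or 0.1 or 1 CPM added; of the named genes' values under these settings 853 moved by less than their counting error and 35 by more. Values of low genes depended most on the CPM added, by up to 1.32 on the log2 scale with 0.1 in place of 0.5. No paired analysis was possible because each U2OS group has 1 library. Depth limits genes with few reads in 1 library, such as BEST1, FGF21 and FUT1, and a single library a side gives no spread between cultures.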

Other observations

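Some groups outside the comparisons above also had values past 2-fold in U2OS cells. Of 22 interferon-stimulated genes, 0 were higher with MMS and 4 were lower: IFIT1 had 11 CPM with MMS against 43.9 CPM with DMSO, IFI44 12.4 against 42 CPM, OASL 14.9 against 39.3 CPM and DDX58 (RIG-I), a sensor of viral RNA, 14.7 against 34.7 CPM. The median of that list was -0.10, close to the -0.08 of all genes, where 11.2% were lower. Of 13 tubulin genes 3 were higher, TUBE1 (57.2 CPM with MMS against 11.4 CPM with DMSO), TUBB2B (12.5 against 2.77 CPM) and TUBB3 (199 against 79 CPM), while TUBB, the most read of them, had 1232 against 2268 CPM.

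Metal and polyamine genes gave single differences. Of 7 metallothionein and zinc genes SLC30A1, a zinc exporter, was higher (100 CPM with MMS against 45 CPM with DMSO), and MT2A (158 against 415 CPM) and SLC39A10, a zinc importer, were lower. Of 13 polyamine genes SAT1, which acetylates polyamines for export, was higher (79.1 CPM with MMS against 22.2 CPM with DMSO), and so was SMOX, spermine oxidase (42.5 against 16.5 CPM). Among 29 chromatin modifiers KDM6B, a histone demethylase, had 103 CPM with MMS against 27.4 CPM with DMSO, and TET1, which oxidises methylcytosine, 0.663 against 5.63 CPM. ABCB1, the drug efflux pump, had 18.7 CPM with MMS against 4.2 CPM with DMSO in U2OS cells; it spans 210 kb.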
